A study of Mus musculus with 8 samples.

Results

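The genes described here build and move motile cilia. They are 48 genes chosen by name, with earlier results of these data known, so their counts are a description and no independent finding. Of them 46 had a probe set on the array, of 18194 genes in all. Cfap44 and Lrriq1 had none. All probe sets that the platform annotation assigns to a listed gene were collected, older names included, and each gene was represented by its brightest probe set. After genes of low signal had been left out, 42 of the 46 were tested. Dnah5, Spag17, Tekt2 and Cfap53 lay below the filter.

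A motile cilium is a beating cell projection whose core, the axoneme, is a ring of microtubule doublets around a central pair. Dynein arms slide the doublets, radial spokes and the nexin link turn sliding into bending, and proteins inside the doublets stabilise them. In the brain motile cilia are carried by ependymal cells and by choroid plexus epithelium, and the transcription factors Foxj1, Rfx2 and Rfx3 switch on their genes.

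Total RNA labelled as mouse cerebral cortex was hybridised to 8 Affymetrix arrays, in 4 groups of 2. The title of the series names the astroglial response to FGF2, a growth factor that drives the division of astrocytes and neural progenitors. The groups were a vehicle control, FGF2 alone, FGF2+U0126 and FGF2+SB202190, so that every group other than vehicle received FGF2. U0126 blocks the MEK kinases, which activate ERK, and SB202190 blocks p38 kinases. The sources used here give no strain, age, dose or time, and do not say whether cells or tissue were treated. Neither inhibitor was given without FGF2. The label of FGF2+SB202190 replicate 2 names its type of treatment acclimatization, where the other labels have wait, and the array was kept in its group. Nothing in the labels says that the 2 samples of a group came from separate cultures or animals, and the p-values therefore reflect a spread between samples that may be no more than technical.

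The arrays had median signals of 22.3 to 27.8, and replicates correlated with r of 0.980 to 0.984 across the genes tested. Astrocyte markers were bright in vehicle, with a mean signal of 5340 for Aqp4, a water channel, and 3210 for Gfap, an intermediate filament protein. Dusp6, a phosphatase induced by ERK signalling, rose with FGF2 by 2.24 ± 0.07 on the log2 scale (limma, adjusted p = 2.68e-10) and fell with U0126 by 0.43 ± 0.07 (adjusted p = 0.00101). Spry4, another ERK target, rose with FGF2 by 2.20 ± 0.21 (adjusted p = 3.62e-06), with a change of -0.07 ± 0.21 under U0126 (adjusted p = 0.846). Of 14 ERK feedback genes tested, 13 rose with FGF2 (92.9%, beside 18.9% of all genes). With U0126 5 were lower than with FGF2 (35.7%, beside 10.5% of all genes). In that group 12 were still higher than in vehicle (85.7%, beside 16.7% of all genes). How far MEK was blocked was not tested.

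RFX factors bind the X-box, a paired motif common in cilium promoters, so the promoters of the list were searched for it in RefSeq sequences of GRCm38.p6, from 250 bases before to 50 after each start. Of the 48 genes 41 had such a sequence. There were 7 spellings, tried in turn on these same promoters on both strands with 0 to 3 bases between the arms, so none is independent of the others' counts. The strict arms GTTNCC and GGNAAC occurred in 0 of 41 genes and in 0.936% of all 27025 genes. The textbook X-box consensus occurred in 10 of 41 (24.4%), against 1.75% of all genes. Relaxing 1 strict arm (GTNNCC with GGNAAC, or GTTNCC with GGNNAC) gave 14.6% against 2.68%, and relaxing both gave 24.4% against 4.38%. A looser form of the consensus gave 51.2% against 11.8%, the lone arm GTTGCC 46.3% against 14.1%, and GTNNCC with NGNAAC 48.8% against 5.94%. A match describes letters and is not a binding site. Windows around the consensus (capitals) are shown for the 3 genes with a match that fell with FGF2, and for Dnai2, not called on its brightest probe set:
Dynlrb2 (chr8:116504956-116504985, + strand): cctgcctgGTTGCCTAGCAACgggggaagc
Cfap45 (chr1:172521103-172521129, + strand): gttcttggGTTGCTATGGTAACgcgtc
Lrrc23 (chr6:124779870-124779899, - strand): ttggcctcGTAACCTGGCAACtactgagct
Dnai2 (chr11:114727378-114727407, + strand): cggccaggGTTGCTAGGCAACtggtaaact
The other 6 genes with the consensus were Hydin, Spag16 and Dnai1, not called with FGF2, Tekt2, below the filter, and Cfap44 and Lrriq1, without a probe set. Most genes that fell, Tekt1 and Cfap126 among them, had no match to the consensus in this window. Tekt1 did match its looser form and the lone arm, and Cfap126 matched the strict arms with both relaxed. Genes without a promoter sequence could not be searched.

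With FGF2 the motile cilium genes fell. Of the 42 tested, 31 were lower than in vehicle (73.8%) and 0 were higher, at an adjusted p under 0.05 from limma. Over all 13174 genes tested, 19% were called lower and 18.9% higher. The median log2 change of the 42 genes was -0.98, against 0.00 over all genes (-0.0039). These are bulk RNA values, in which fewer cells of a type and less RNA per cell cannot be told apart. The summed signal of the 46 genes was 12320 and 12430 on the vehicle arrays and 5486 and 5119 with FGF2, with no overlap.

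Adding U0126 raised part of the list again. Against FGF2 alone 21 of 42 genes were higher (50%) and 0 lower, beside 11.6% and 10.5% of all genes. The median change was 0.64, against 0.03 over all genes, and the summed signal was 8048 and 7808. Adding SB202190 raised none of the genes: 0 were higher and 4 lower (9.52%), beside 1.32% and 1.7% of all genes, with a median change of -0.24 and a summed signal of 4309 and 4421. In that comparison a count of 4 rests on few calls and did not hold under all settings, as given beside those genes.

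As a share of the vehicle mean, the median gene of the 42 stood at 49% with FGF2, 69.7% with FGF2+U0126 and 37.8% with FGF2+SB202190. The lowest share with FGF2 was 10.1%, for Rsph4a. Dnah11 had a vehicle mean below the filter, so its shares have no measured base and are not read. All comparisons with FGF2 alone share its 2 arrays, and all comparisons with vehicle share those, so the values are given side by side.

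**Figure D1:**
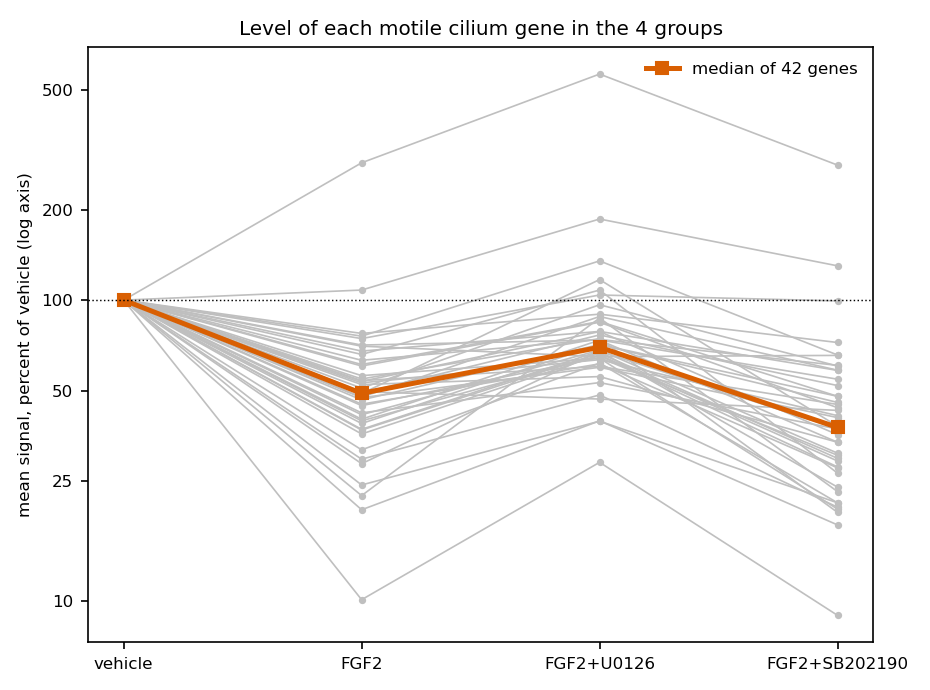
Mean signal of each of the 42 motile cilium genes tested (grey lines) and their median (orange squares) in the 4 groups of 2 arrays, as a percent of the gene's vehicle mean on a log axis. The median stands at 49% with FGF2, 69.7% with FGF2+U0126 and 37.8% with FGF2+SB202190; the uppermost line is Dnah11, whose vehicle mean lay below the filter.

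All 3 transcription factors in the list were lower with FGF2, beside 19% of all genes. Foxj1, the forkhead factor that drives the motile cilium programme, had signals of 789 and 802 on the vehicle arrays, 380 and 337 with FGF2, 463 and 513 with FGF2+U0126 and 217 and 224 with FGF2+SB202190. The groups do not overlap and the lowest pair was the one with SB202190. Foxj1 fell by 1.18 ± 0.09 on the log2 scale with FGF2 (adjusted p = 3.38e-07), rose by 0.43 ± 0.09 with U0126 over FGF2 (adjusted p = 0.00314) and fell by 0.70 ± 0.09 with SB202190 below FGF2 (adjusted p = 0.00149). With U0126 it was still lower than in vehicle, by a log2 change of -0.74 ± 0.09.

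Rfx2, a factor that acts with Foxj1 at cilium genes, had signals of 134 and 126.3 on the vehicle arrays, 49.6 and 47 with FGF2, 75.7 and 100 with FGF2+U0126 and 52.3 and 44.8 with FGF2+SB202190. It fell by 1.34 ± 0.19 with FGF2 and rose by 0.81 ± 0.19 with U0126, with a change of 0.00 ± 0.19 under SB202190. Rfx2 has 4 probe sets, and both calls were lost when they were averaged. The rise was also lost without FGF2 replicate 2 or without FGF2+U0126 replicate 2. Rfx3, a related factor also needed for primary cilia, gave 351 and 263 on the vehicle arrays, 241 and 191 with FGF2, 209 and 190 with FGF2+U0126 and 196 and 206 with FGF2+SB202190. Its vehicle and FGF2 values lie apart but close, and it fell by 0.49 ± 0.14 (adjusted p = 0.0145). With U0126 over FGF2 its log2 change was -0.12 ± 0.14, which was not called, and against vehicle it was -0.62 ± 0.14. The fall of Rfx3 with FGF2 was not called after median centring, without the intensity trend in the variance, without vehicle replicate 1 or without FGF2 replicate 2, with log2 changes between -0.70 and -0.29 over all settings.

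The dynein genes were few, and several were dim. Of 8 tested, 3 fell with FGF2 (37.5%) and 0 rose, beside 19% and 18.9% of all genes. A count this small does not set the group apart. Dynlrb2, a roadblock light chain of dynein, gave 972 and 1104 on the vehicle arrays, 238 and 266 with FGF2, 430 and 393 with FGF2+U0126 and 229 and 210 with FGF2+SB202190. The FGF2 values lie far below vehicle and the U0126 values between the pair, without overlap. It fell by 2.05 ± 0.10 (adjusted p = 8.08e-09) and rose by 0.68 ± 0.10 with U0126. Its paralog Dynlrb1, a subunit of dyneins in all cells, had a log2 change of -0.11 ± 0.05 that was not called (adjusted p = 0.106).

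Dnali1, a light intermediate chain of the inner arms, gave 261 and 301 on the vehicle arrays, 80.2 and 86.2 with FGF2, 138 and 134 with FGF2+U0126 and 50 and 65 with FGF2+SB202190. It fell by 1.71 ± 0.15 and rose by 0.67 ± 0.15, and its other probe set fell by 1.81 ± 0.47 with FGF2. The rise was lost without FGF2 replicate 1 and with the mean of both probe sets. Dnah9, an outer arm heavy chain, gave 148 and 102 on the vehicle arrays, 63.9 and 54.5 with FGF2, 85.8 and 63.8 with FGF2+U0126 and 49.9 and 51.9 with FGF2+SB202190. It fell by 0.98 ± 0.21, and its change of 0.31 ± 0.21 with U0126 was not called.

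The remaining 5 dyneins tested were not called with FGF2 on their brightest probe set. Dnai2, an outer arm intermediate chain, gave 63.8 and 92.2 on the vehicle arrays, 88.5 and 80.5 with FGF2, 150 and 140 with FGF2+U0126 and 104 and 97.6 with FGF2+SB202190. The U0126 pair stands highest. The SB202190 pair also lies above the FGF2 and vehicle arrays, but neither of those differences was called. Its log2 change with FGF2 was 0.22 ± 0.19, and it rose by 0.73 ± 0.19 with U0126, also above vehicle, by 0.96 ± 0.19. The other Dnai2 probe set went the opposite way with FGF2, by -0.93 ± 0.32 (adjusted p = 0.0413 over all probe sets), so the gene has no settled direction there. The rise over FGF2 was lost without the intensity trend, without FGF2 replicate 2 or without FGF2+U0126 replicate 1. The difference from vehicle was lost with the mean of the probe sets, and without probe sets that can bind several transcripts, and came as low as 0.08.

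Dnah1, an inner arm heavy chain, changed by -0.37 ± 0.24 with its chosen probe set, which was not called, and by -1.13 ± 0.33 with its other one (adjusted p = 0.0194 over all probe sets). Dnah2, Dnai1 and Dnah11 had log2 changes of -0.48, -0.40 and 1.38, none of them called. Dnah11 was dim, with vehicle signals of 8.46 and 4.54 and U0126 signals of 34.3 and 39.

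Zmynd10, a factor that preassembles dynein arms in the cytoplasm, gave 116 and 90.9 on the vehicle arrays, 27.6 and 18.8 with FGF2, 95.8 and 84.9 with FGF2+U0126 and 40 and 7.87 with FGF2+SB202190. The SB202190 pair is the most spread. Zmynd10 fell by 2.00 ± 0.49 with FGF2 and rose by 1.86 ± 0.49 with U0126 to a level not called different from vehicle (-0.14 ± 0.49). The SE is wide, and the fall was lost without FGF2 replicate 2 and without the intensity trend, as was the rise, which also went without FGF2+U0126 replicate 1 or 2.

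**Figure D2:**
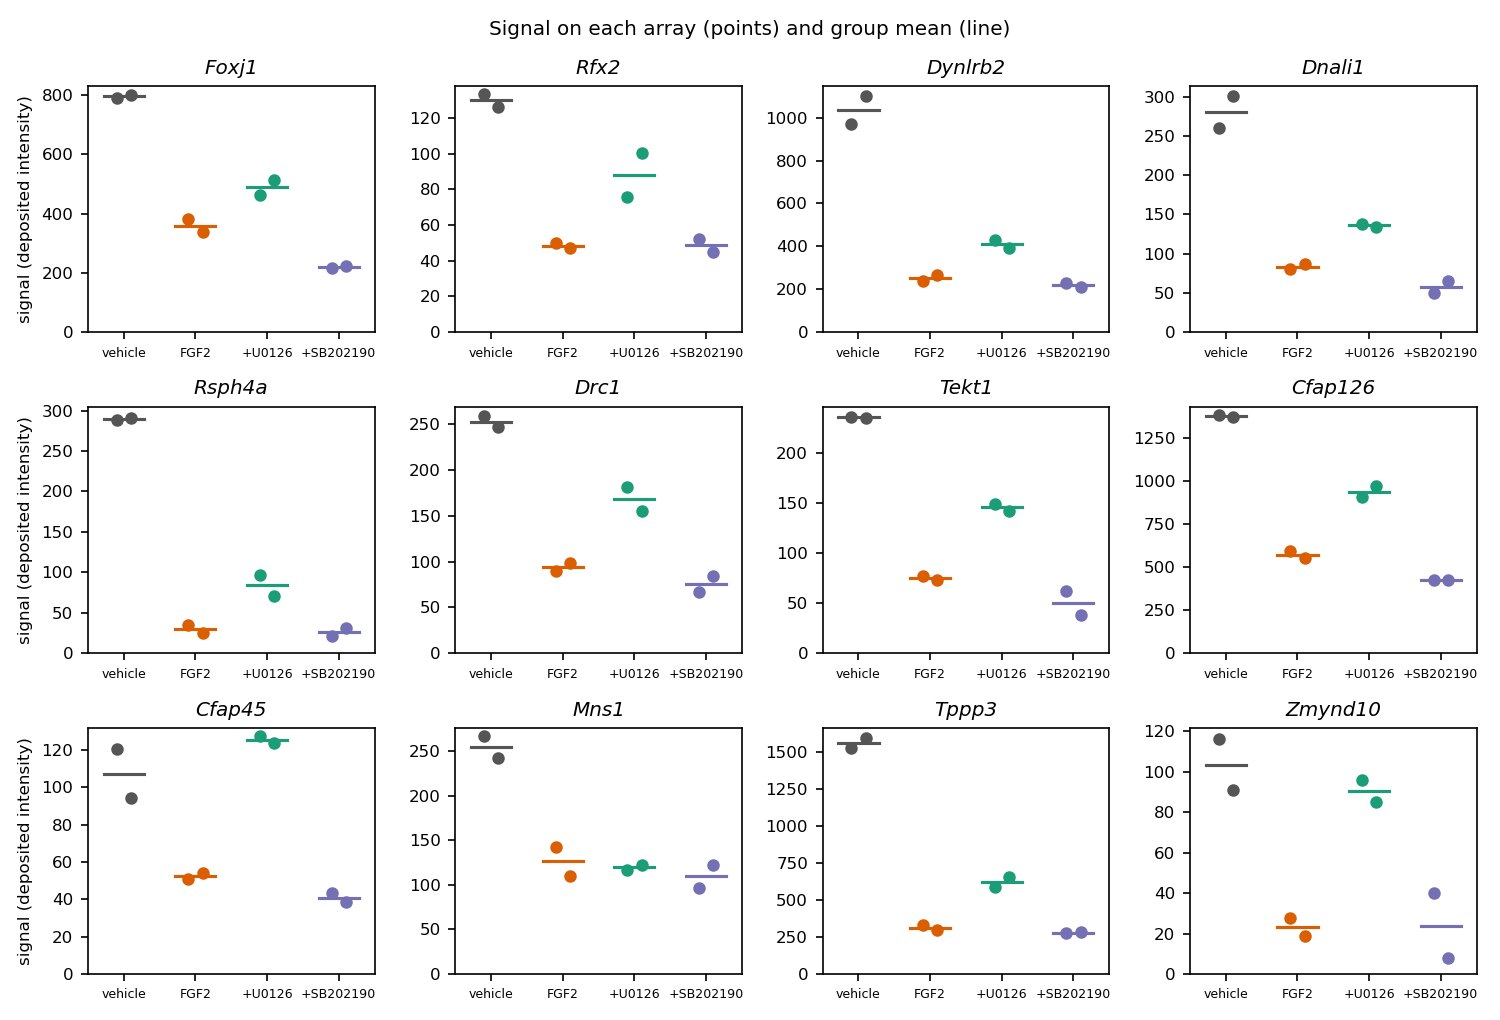
Signal on each of the 2 arrays of a group (points, linear axis from 0) and the group mean (line) for 12 motile cilium genes. For most of them the FGF2 and FGF2+SB202190 points lie lowest and the FGF2+U0126 points lie between them and vehicle, while Cfap45 returns to the vehicle level and Mns1 stays at 117 and 122 with U0126.

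All 4 genes of the molecular ruler and nexin link group fell with FGF2, beside 19% of all genes. Ccdc39 and Ccdc40, which together form the ruler that spaces the arms and spokes along the doublet, are taken in turn. Ccdc39 gave 203 and 148 on the vehicle arrays, 75.8 and 60.8 with FGF2, 144 and 105 with FGF2+U0126 and 72.8 and 87.6 with FGF2+SB202190. It fell by 1.29 ± 0.20 and rose by 0.83 ± 0.20, and both calls were lost with the mean of its probe sets. The rise was also lost without FGF2 replicate 2, without FGF2+U0126 replicate 1 or without the intensity trend. Ccdc40 gave 164 and 156 on the vehicle arrays, 74.9 and 60.4 with FGF2, 88.8 and 81.5 with FGF2+U0126 and 55.2 and 64.4 with FGF2+SB202190. It fell by 1.18 ± 0.17, with an uncalled change of 0.32 ± 0.17 under U0126. The difference between the pair was not tested.

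Drc1, a scaffold of the nexin-dynein regulatory complex, gave 259 and 247 on the vehicle arrays, 89.3 and 98 with FGF2, 182 and 155 with FGF2+U0126 and 67.1 and 83.9 with FGF2+SB202190. It fell by 1.40 ± 0.15 and rose by 0.81 ± 0.15, and its U0126 pair lies between FGF2 and vehicle without overlap. Ccdc113 gave 65.2 and 67.7 on the vehicle arrays, 26.9 and 26.6 with FGF2, 47.6 and 50.2 with FGF2+U0126 and 24 and 20.8 with FGF2+SB202190. It fell by 1.14 ± 0.25 and rose by 0.81 ± 0.25. That rise was lost without the filter on low signals and on leaving out any 1 of the FGF2 or FGF2+U0126 arrays.

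Of 12 radial spoke and central pair genes tested, 10 fell with FGF2 (83.3%), beside 19% of all genes. With U0126 4 rose (33.3%), beside 11.6% of all genes. That count is small and includes Cfap69, whose rise did not hold in all settings. Rsph4a, a spoke head protein, had the largest fall of the 42 genes in these libraries, with signals of 288 and 291 on the vehicle arrays, 34.2 and 24.4 with FGF2, 96.9 and 70.2 with FGF2+U0126 and 20.9 and 31 with FGF2+SB202190. It fell by 3.20 ± 0.23 (adjusted p = 2.9e-07) and rose by 1.42 ± 0.23 with U0126, with a log2 change of -1.77 ± 0.23 against vehicle. The spoke head proteins Rsph9 and Rsph1 had smaller changes. Rsph9 gave 430 and 482 on the vehicle arrays, 315 and 302 with FGF2, 378 and 339 with FGF2+U0126 and 263 and 269 with FGF2+SB202190, and fell by 0.57 ± 0.09.

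Rsph1 gave 441 and 459 on the vehicle arrays, 351 and 347 with FGF2, 421 and 387 with FGF2+U0126 and 299 and 352 with FGF2+SB202190 and fell by 0.37 ± 0.10, the smallest fall called, which was lost with median centring. Neither rise with U0126 was called (0.20 ± 0.09 and 0.20 ± 0.10). Nme5, a spoke protein with a nucleoside kinase domain, gave 859 and 992 on the vehicle arrays, 420 and 406 with FGF2, 577 and 615 with FGF2+U0126 and 276 and 288 with FGF2+SB202190. All 4 pairs lie apart. It fell by 1.18 ± 0.09 with FGF2, rose by 0.52 ± 0.09 with U0126 and fell by 0.54 ± 0.09 with SB202190 (adjusted p = 0.00488).

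Ak7, an adenylate kinase of cilia, gave 292 and 280 on the vehicle arrays, 138 and 134 with FGF2, 247 and 257 with FGF2+U0126 and 178 and 157 with FGF2+SB202190. It fell by 1.05 ± 0.11 and rose by 0.86 ± 0.11, to a level not called different from vehicle (-0.19 ± 0.11). Lrrc23, a spoke protein, gave 260 and 258 on the vehicle arrays, 132 and 148 with FGF2, 172 and 140 with FGF2+U0126 and 123 and 110 with FGF2+SB202190. It fell by 0.87 ± 0.13, and its change with U0126 was 0.14 ± 0.13, not called. Stk36, a kinase needed for the central pair, gave 118 and 132 on the vehicle arrays, 74.3 and 56.3 with FGF2, 62.1 and 76.7 with FGF2+U0126 and 49.1 and 34.8 with FGF2+SB202190. It fell by 0.87 ± 0.22 with no call under U0126 (0.07 ± 0.22), and its dimmer probe set fell by 2.11 ± 0.43. The call on the brighter one was lost without vehicle replicate 2 or without FGF2 replicate 2.

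Cfap69, a central pair protein, gave 250 and 193 on the vehicle arrays, 108 and 110 with FGF2, 173 and 167 with FGF2+U0126 and 97 and 134 with FGF2+SB202190. With this probe set it fell by 0.98 ± 0.16 and rose by 0.62 ± 0.16. Its other 2 probe sets had uncalled changes of 0.08 and -0.06 with FGF2 and of -0.55 and -0.41 with U0126, and the mean of all 3 turned the U0126 change to -0.12. With that mean the fall with FGF2 was not called either, at -0.32. The rise was also lost without the intensity trend and on leaving out any 1 of the FGF2 or FGF2+U0126 arrays.

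Cfap54, a central pair protein, gave 193 and 181 on the vehicle arrays, 106 and 130 with FGF2, 165 and 112 with FGF2+U0126 and 119 and 108 with FGF2+SB202190 and fell by 0.64 ± 0.17. That call was lost without vehicle replicate 1, without FGF2 replicate 1 or without the intensity trend. Cfap206, of the same role group, gave 76.8 and 95 on the vehicle arrays, 44.2 and 23.9 with FGF2, 58.8 and 53.5 with FGF2+U0126 and 18.2 and 29.7 with FGF2+SB202190 and fell by 1.24 ± 0.31, a call lost without vehicle replicate 2 or without FGF2 replicate 2. Their changes with U0126 were 0.20 ± 0.17 and 0.74 ± 0.31, not called. Hydin and Spag16, both of the central pair, were not called with FGF2 (-0.64 and -0.21), and both were dim, with vehicle means of 29.7 and 38.4.

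Among proteins bound inside the doublet microtubules, 7 of 9 genes tested fell with FGF2 (77.8%), beside 19% of all genes. With U0126 6 rose (66.7%), beside 11.6% of all genes. Cfap126, also called Flattop, had signals of 1385 and 1372 on the vehicle arrays, 591 and 555 with FGF2, 908 and 971 with FGF2+U0126 and 426 and 428 with FGF2+SB202190. The 4 pairs do not overlap. It fell by 1.28 ± 0.07 (adjusted p = 1.79e-08), rose by 0.71 ± 0.07 with U0126 and fell by 0.42 ± 0.07 with SB202190 (adjusted p = 0.00553). Enkur, an adaptor inside the doublet, gave 780 and 728 on the vehicle arrays, 409 and 400 with FGF2, 607 and 577 with FGF2+U0126 and 293 and 245 with FGF2+SB202190. It fell by 0.93 ± 0.09, rose by 0.54 ± 0.09 and fell by 0.58 ± 0.09 with SB202190 (adjusted p = 0.00554). Cfap126, Enkur, Nme5 and Foxj1 were the 4 genes called with SB202190. Without the intensity trend 0 of them were called, without FGF2 replicate 1 the count over the list was 1, and without FGF2 replicate 2 it was 3.

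Tekt1, a tektin filament protein, gave 236 and 235 on the vehicle arrays, 77 and 72.6 with FGF2, 149 and 142 with FGF2+U0126 and 61.5 and 38.3 with FGF2+SB202190. It fell by 1.60 ± 0.19 and rose by 0.91 ± 0.19. Cfap161 gave 212 and 219 on the vehicle arrays, 66.8 and 56.4 with FGF2, 148 and 144 with FGF2+U0126 and 56.2 and 46.8 with FGF2+SB202190. The U0126 pair lies between FGF2 and vehicle, and the gene fell by 1.75 ± 0.16 and rose by 1.20 ± 0.16. Cfap45 gave 121 and 94 on the vehicle arrays, 50.9 and 53.9 with FGF2, 127 and 124 with FGF2+U0126 and 43.3 and 38.5 with FGF2+SB202190. With U0126 both arrays stood above both vehicle arrays, and the gene fell by 0.93 ± 0.18 and rose by 1.21 ± 0.18, and the difference from vehicle was not called (0.27 ± 0.18).

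Cfap52 gave 247 and 260 on the vehicle arrays, 160 and 146 with FGF2, 232 and 196 with FGF2+U0126 and 105 and 118 with FGF2+SB202190. It fell by 0.70 ± 0.13 and rose by 0.46 ± 0.13. That rise was lost without FGF2 replicate 2, without FGF2+U0126 replicate 1, without the intensity trend and with the mean of its probe sets. Mns1, a coiled-coil protein of the doublet lumen, gave 267 and 242 on the vehicle arrays, 143 and 110 with FGF2, 117 and 122 with FGF2+U0126 and 96.7 and 122 with FGF2+SB202190. Its FGF2, U0126 and SB202190 values overlap, all below vehicle. It fell by 0.99 ± 0.15 with FGF2, and its change with U0126 was -0.07 ± 0.15 (adjusted p = 0.785). Efhc2 and Tekt4 were not called with FGF2 (-0.74 and -0.66).

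Tppp3, which promotes the polymerisation of tubulin, gave 1523 and 1594 on the vehicle arrays, 331 and 294 with FGF2, 583 and 654 with FGF2+U0126 and 278 and 280 with FGF2+SB202190. FGF2 and SB202190 lie lowest, and the U0126 pair lies between them and vehicle. It fell by 2.32 ± 0.08 (adjusted p = 8.65e-10) and rose by 0.96 ± 0.08 with U0126, and against vehicle the U0126 change was -1.36 ± 0.08. Meig1, known from sperm tail formation, gave 243 and 293 on the vehicle arrays, 112 and 80.6 with FGF2, 196 and 155 with FGF2+U0126 and 77.9 and 78.3 with FGF2+SB202190 and fell by 1.45 ± 0.17 and rose by 0.85 ± 0.17. Cfap43, an axonemal protein, gave 92.4 and 66.6 on the vehicle arrays, 24 and 50.1 with FGF2, 64.6 and 48.7 with FGF2+U0126 and 34.5 and 41.6 with FGF2+SB202190. It fell by 1.03 ± 0.31. This call was lost without vehicle replicate 1, without FGF2 replicate 1, without the intensity trend or with the mean of its probe sets. Cfap70 and Morn3 were not called with FGF2 (-0.40 and -0.61).

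**Figure D3:**
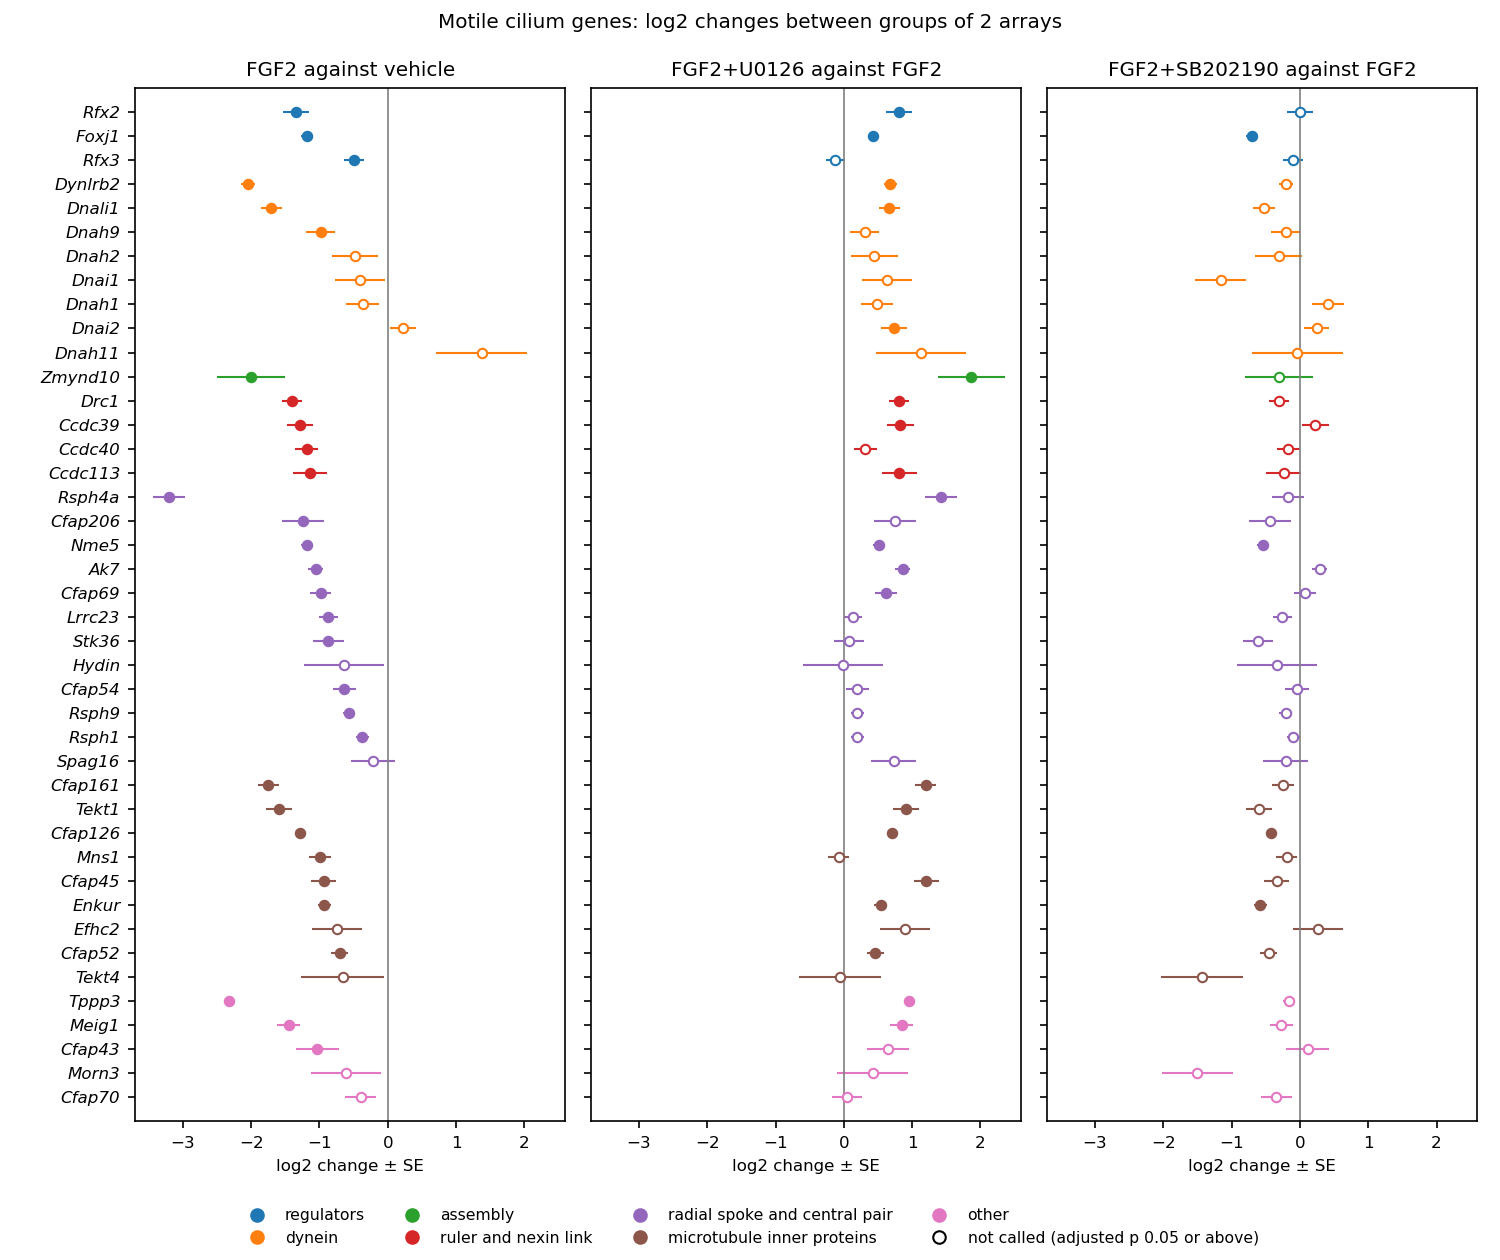
Log2 change ± SE of the 42 motile cilium genes tested, by role, in 3 comparisons of 2 against 2 arrays; filled points are called at an adjusted p under 0.05. With FGF2 31 genes are called lower, with U0126 over FGF2 21 are called higher, and with SB202190 4 are called lower.

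Of the 31 genes that fell with FGF2, 20 were called higher with U0126 and 11 were not. Against vehicle, 12 of the 20 were still called lower with U0126, among them Foxj1, Tppp3, Dynlrb2 and Rsph4a. Of those 12, Enkur, Meig1, Drc1, Tekt1 and Cfap161 lost that call with median centring and on leaving out at least 1 array. The other 8 were not called against vehicle: Ak7, Cfap52, Cfap69, Ccdc39, Cfap45, Rfx2, Zmynd10 and Ccdc113. Of the 11 without a call under U0126, 7 were lower than vehicle there: Rsph9, Rfx3, Lrrc23, Mns1, Ccdc40, Dnah9 and Stk36. The calls of Rsph9, Rfx3, Dnah9 and Stk36 against vehicle did not hold in all settings. A call in one comparison and not in another does not show that the changes differ.

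In all, FGF2+U0126 against vehicle called 19 of the 42 genes lower and 2 higher (Dnah11 and Dnai2), with a median of -0.48, beside 15% and 16.7% of all genes. Dnah11 had a vehicle mean below the filter and passed only through the groups where it was high, and its call was lost without the intensity trend, without vehicle replicate 2 or without FGF2+U0126 replicate 2. Neither call is support for a rise in the list. FGF2+SB202190 against vehicle called 35 lower and 0 higher, with a median of -1.31, beside 17.8% and 18%. The 35 held the 31 that fell with FGF2 alone and Cfap70, Dnai1, Tekt4 and Morn3. Dnai1, Tekt4 and Morn3 had FGF2+SB202190 means below the filter (10.2, 8.56 and 7.62) and passed only through the groups where they were higher. None of these 4 further calls held in all settings, and they are not support for a wider fall. Set directly against each other, FGF2+U0126 was higher than FGF2+SB202190 in 26 of 42 genes and lower in 0, with a median of 0.90, beside 12.4% and 10.3% of all genes.

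Over all genes tested, 19% were called lower and 18.9% higher with FGF2, and 11.6% higher and 10.5% lower with U0126. With SB202190 1.32% were called higher and 1.7% lower. Other genes of the motile cilium, from a further list also chosen with earlier results known, moved with the members. Of 76 tested, 48 fell with FGF2 and 1 rose (Dnaaf2, a dynein assembly factor, by 0.66 ± 0.16, named after its value was seen), with a median of -0.96. Spag6l, a central pair protein, fell by 1.79 ± 0.14 and Dnajb13, a spoke chaperone, by 1.52 ± 0.13. With U0126 31 rose and 0 fell, and with SB202190 0 rose and 2 fell. Genes of intraflagellar transport, the BBSome and the transition zone also serve the primary cilium that most cells carry. Of 64 tested, 30 fell with FGF2 (46.9%) and 5 rose (7.81%), with a median of -0.32, and 16 rose with U0126 (25%). The share that rose with FGF2 is below the 18.9% of all genes. Rpgr, of the transition zone, fell by 1.05 ± 0.11. Of 20 RFX family genes and cilium regulators tested, 10 fell (50%) and 3 rose (15%), the latter a share below the 18.9% of all genes. The 20 include the 3 factors above and the member Stk36, and Ccno and Myb of the further list, so these genes are counted more than once. Rfx4 fell by 1.51 ± 0.08 and Gmnn, an inhibitor of DNA replication licensing, rose by 0.80 ± 0.11.

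Other gene groups fell as well. FGF2 lowered 24 (85.7%) and raised 3 (10.7%) of the 28 genes on the mature astrocyte list, beside 19% and 18.9% of all genes. The median change of the list was -0.74. With U0126 15 rose (53.6%) and 2 fell (7.14%), beside 11.6% and 10.5% of all genes. Aqp4 fell by 1.92 ± 0.06. The summed signal of the list was 73910 and 72540 in vehicle, 51880 and 55060 with FGF2, 56960 and 56360 with U0126 and 50540 and 49230 with SB202190. Of 27 DNA replication genes 25 rose with FGF2 (92.6%) and 0 fell. With U0126 17 of them fell (63%) and 0 rose, beside 10.5% and 11.6% of all genes.

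**Figure D4:**
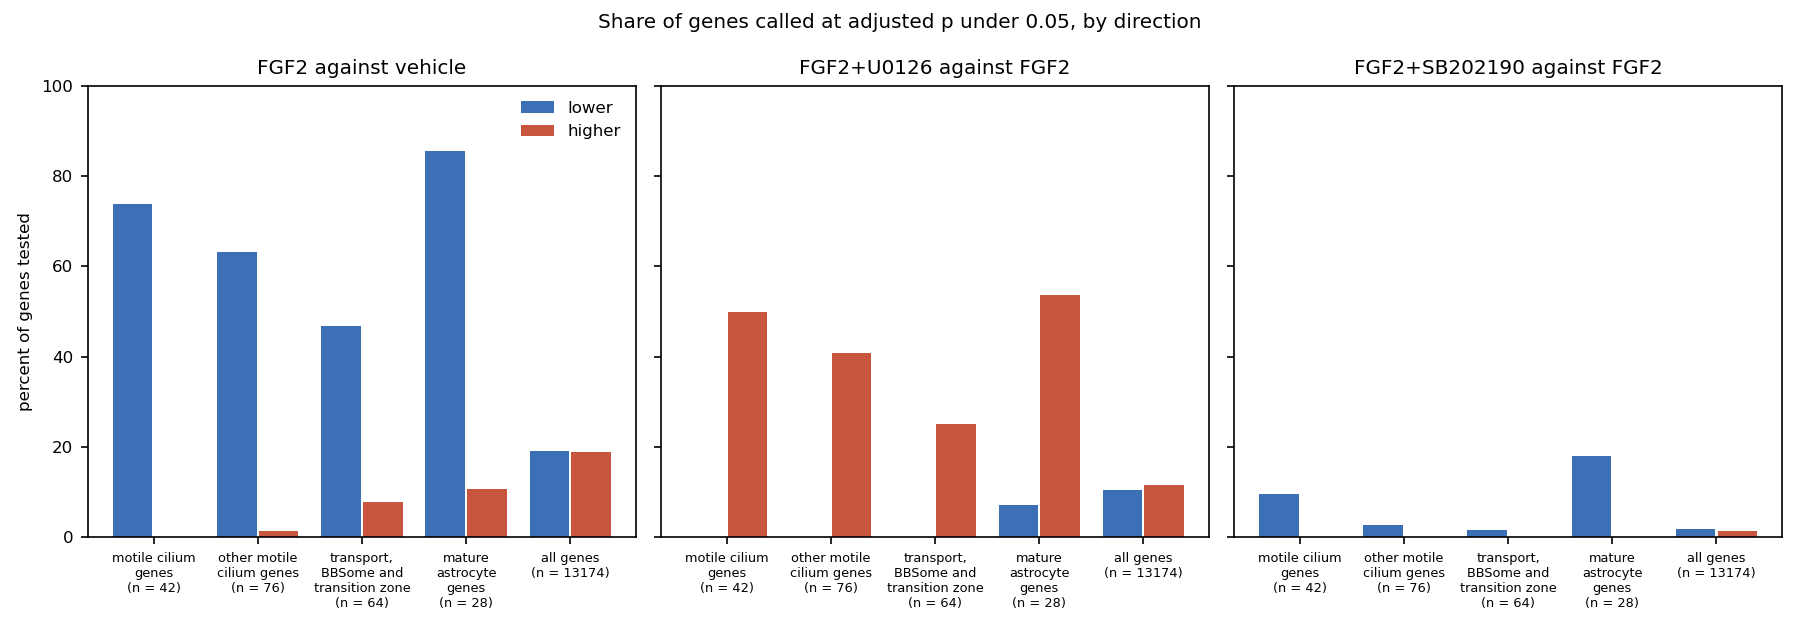
Percent of genes called lower (blue) and higher (red) at an adjusted p under 0.05 in 3 comparisons, for the motile cilium genes, other motile cilium genes, genes of transport, BBSome and transition zone, mature astrocyte genes and all 13174 genes tested. With FGF2 73.8% of the motile cilium genes, 85.7% of the astrocyte genes and 19% of all genes are called lower.

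Markers of other cell types were counted in the same way. Of 23 ependymal and choroid plexus genes outside the cilium, 13 fell with FGF2 (56.5%) and 2 rose (8.7%), with a median of -0.67. Over all genes 19% were called lower and 18.9% higher. The summed signal of the list was 42770 and 43490 in vehicle, 40950 and 44950 with FGF2, 41390 and 40470 with U0126 and 37860 and 38150 with SB202190. The list includes S100b, which is also on the mature astrocyte list, and genes such as Vim, Acta2, Anxa2 and Mt3 that are not particular to these cells. The sum therefore does not measure these cells, and its similar level with FGF2 does not show that their part was unchanged. The defining choroid plexus marker Ttr had means of 2577 in vehicle and 2464 with FGF2 and was not called (log2 change -0.15 ± 0.20, adjusted p = 0.596), while Folr1 fell by 1.44 ± 0.12 and Kcnj13 by 2.27 ± 0.47. Of 16 meningeal and pericyte genes 10 fell and 0 rose, with sums of 36050 and 34350 in vehicle and 27270 and 31340 with FGF2. The part of these cells in the fall of the cilium genes was not tested.

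Neuronal genes counted 3 higher and 1 lower of 11, oligodendrocyte genes 1 higher and 3 lower of 9, microglial genes 1 higher and 2 lower of 9, and endothelial genes 1 higher and 2 lower of 7. With 18.9% of all genes higher and 19% lower, counts this small do not set these lists apart. Summed signals in vehicle and with FGF2 were 2648 to 2669 and 2751 to 2829 for neurons, 4496 to 4653 and 5551 to 5733 for oligodendrocytes, 1041 to 1306 and 1166 to 1303 for microglia, and 1829 to 1958 and 740 to 788 for endothelial genes. Snap25, Mog, Aif1, Pecam1, C1qa and Cldn5, defining markers of these cells, lay below the filter. The part of these cells was not tested.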

How the data were processed

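The deposited table holds linear intensity values per probe set, with an algorithm not given in the sources used here; per the deposited values each array has a mean of 150.001 after trimming 2% at each end. Of 45101 probe sets, the platform annotation gave 1 symbol to 34958, several to 932 and none to 9211, and only the first kind named genes. Values were taken to log2(value + 1.77), the 10th percentile of all values, which shrinks changes of dim genes, and quantile normalized. A gene was its brightest probe set, and genes under the 40th percentile of probe sets (log2 3.83) were left out. limma 3.58.1 (R 4.3.3) fitted all 8 arrays together and let the variance prior follow intensity (degrees of freedom 4 for residuals, 8.99 for the prior). Tests were two-sided, Benjamini-Hochberg adjusted over 13174 genes within each of 6 comparisons, called under 0.05. The number of arrays limits precision. The procedure was also run on simulated data with independent normal noise. Such data cannot show whether the samples of a group were separate cultures or animals, and nothing is concluded from them. Every member was accounted for; values per array are given for the 3 factors and for members called with FGF2 or either inhibitor, up to 4 genes of each other list by smallest p. The members, lists and role groups were chosen with earlier results of these data known, and the spellings of the X-box were tried one after another. Alternatives were other scalings, pseudocounts, filters, variance priors, array weights, probe set rules, thresholds, a replicate block and leaving out each array. Replicate numbers did not pair the arrays (correlations of deviations from -0.026 to 0.034). Figures were drawn with matplotlib 3.10.9 in Python 3.11.15.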

Additional observations from a re-analysis of the deposited data

How the results depend on the processing

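Over the 21 alternatives with a called threshold of 0.05, 21 of the 31 falls with FGF2 and 13 of the 21 rises with U0126 were called in every one that could be fitted, and 0 of the 4 falls with SB202190. The same held for 10 of 21 calls with U0126 against vehicle, 25 of 35 with SB202190 against vehicle and 15 of 26 of U0126 over SB202190. Leaving out 1 array at a time gave 27 to 31 falls and 0 to 1 rises with FGF2 (medians -1.08 to -0.90), 15 to 21 rises with U0126 (0.51 to 0.65) and 1 to 5 falls with SB202190 (-0.30 to -0.19). Against vehicle it gave 13 to 19 falls and 1 to 2 rises with U0126 (-0.54 to -0.37) and 30 to 35 falls and 0 to 1 rises with SB202190 (-1.38 to -1.23), and 20 to 26 rises of U0126 over SB202190 (0.79 to 0.90). Without the intensity trend 0 genes were called lower with SB202190. Median centring moved the median of all genes by 0.16 for FGF2 against vehicle, where 4018 genes were then higher and 1479 lower, against 2489 and 2502, so that 73.1% of calls were higher, against 49.9%. It left 12 falls of the list with U0126 against vehicle and gave 1 rise with SB202190 against vehicle, as did a threshold of 0.1. The 2 rises with U0126 against vehicle became 1 with the filter at the 60th percentile, without the intensity trend, with the mean of probe sets, without probe sets that can bind several transcripts and at a threshold of 0.01. A pseudocount of 16 moved the median for SB202190 against vehicle to -1.06 and that for U0126 against SB202190 to 0.69, which the filter at the 60th percentile also put at 0.69 and the mean of probe sets at 0.75. A median counts as moved here when it shifts by more than the SD of a difference between 2 arrays. This yardstick replaced an earlier one, the SD over same-numbered replicate differences, after that had been run, because the numbers do not pair the arrays; 4 of 108 medians moved by the one and 43 by the other, and 0 changed sign. Cfap69 with U0126 reversed to -0.12 with the mean of its probe sets. The cause was not tested. With the replicate number as a block, the counts for pairing were 31 falls with FGF2, 21 rises and 4 falls with U0126 and SB202190, 19 and 35 falls against vehicle, and 27 rises of U0126 over SB202190. Dim genes such as Dnah11 and Hydin limit what these arrays show.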

Other observations

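Hedgehog signalling, which in vertebrates runs through the primary cilium, included the ligand Shh. It rose with FGF2 by 1.38 ± 0.07 on the log2 scale (limma, adjusted p = 1.38e-08), fell with U0126 by 1.42 ± 0.07 and fell with SB202190 by 0.56 ± 0.07. Of 12 pathway genes tested 1 rose with FGF2 (8.33%) and 3 fell (25%), shares not far from or below the 18.9% and 19% of all genes, so the genes named here are single values and no result about the pathway. Cdon, a co-receptor, fell by 1.33 ± 0.13 and Gas1, another, by 1.03 ± 0.13, and the receptor Ptch1 fell by 0.20 ± 0.06. Slco1a4, a transporter on the endothelial list, fell by 1.92 ± 0.09 with FGF2, rose by 0.98 ± 0.09 with U0126 and fell by 0.46 ± 0.09 with SB202190.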
